A study of Mus musculus with 9 samples.

Results

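The genes described here are 9 transcripts that mark T cells and cytotoxic lymphocytes: Cd3e, Cd3g, Cd3d, Cd8a, Cd8b1, Trac, Cd2, Gzmb and Nkg7. They were chosen by name as genes of T cells and cytotoxic lymphocytes, with earlier results of these data known. The deposited tables held 51912 Ensembl genes, of which 36369 had at least 1 count. The libraries hold RNA of hippocampal cells from male C57BL/6 mice that express Cre recombinase under the promoter of Camk2a, a kinase gene of forebrain excitatory neurons. A recombinant adeno-associated virus of serotype 5 (rAAV5) carrying Cre-dependent mCherry, a red fluorescent protein, was injected at 2.88e+08, 2.88e+09 or 2.88e+10 vector genomes, the low dose serving as the control. After 3 weeks, slices of the hippocampus were dissociated with papain, and mCherry-fluorescent cells that excluded the dye DAPI were sorted. All mice received the vector.

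The series lists 9 libraries in 3 groups of 3, titled S1001 to S1009, but the labels give no library a dose. The headers of the deposited count columns carry the letter H for S1001 to S1003, M for S1004 to S1006 and L for S1007 to S1009. The labels do not explain these letters, so no library was assigned to a dose, values are given library by library, and no test between doses was made. Which level belongs to which dose is therefore not stated here.

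T cells recognise peptides on MHC molecules through a receptor of an alpha and a beta chain, which reaches the surface only with the CD3 chains that carry its signal. The CD8 coreceptor binds MHC class I molecules and marks cytotoxic T cells. These cells and natural killer (NK) cells kill targets by releasing granules that hold perforin and granzymes. In the uninjured brain lymphocytes are rare.

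Total gene counts ranged from 12136830 to 19151596 per library, so 1 count stood for 0.0526 to 0.0820 CPM (the count as a share of the library total, after TMM scaling). Where a gene had 0 counts, the level of 3 counts was taken as its limit, 0.158 to 0.246 CPM depending on the library. This limit covers counting error only. The exact Poisson 95% interval of 0 counts reaches higher, to 3.69 counts, and by it the ratios to 3 counts given below would be lower. Transcripts of pyramidal neurons were present in every library, and the excitatory marker Slc17a7 ranged from 184 to 586 CPM. Profiles of S1001, S1002 and S1003 were much alike. The chi-square of their counts per degree of freedom was 2.67 to 5.14 between pairs of them, above the 1 of pure counting noise. It was 24.3 to 33.6 within S1004 to S1006 and 27.2 to 38.9 within S1007 to S1009. Between libraries of different sets it was 83.3 to 184. The series text calls its replicates biological, but the labels do not tie a library to an animal.

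Transcripts of 8 of the 9 genes were found almost solely in S1001, S1002 and S1003. Summed over these 8 genes, all but Trac, the raw counts were 362, 415 and 415 in S1001 to S1003, 1, 1 and 4 in S1004 to S1006 and 0, 0 and 0 in S1007 to S1009. Of the 48 values of these genes in S1004 to S1009, 44 were 0 and the highest was 3 counts. Trac was the exception, with counts in every library.

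**Figure D1:**
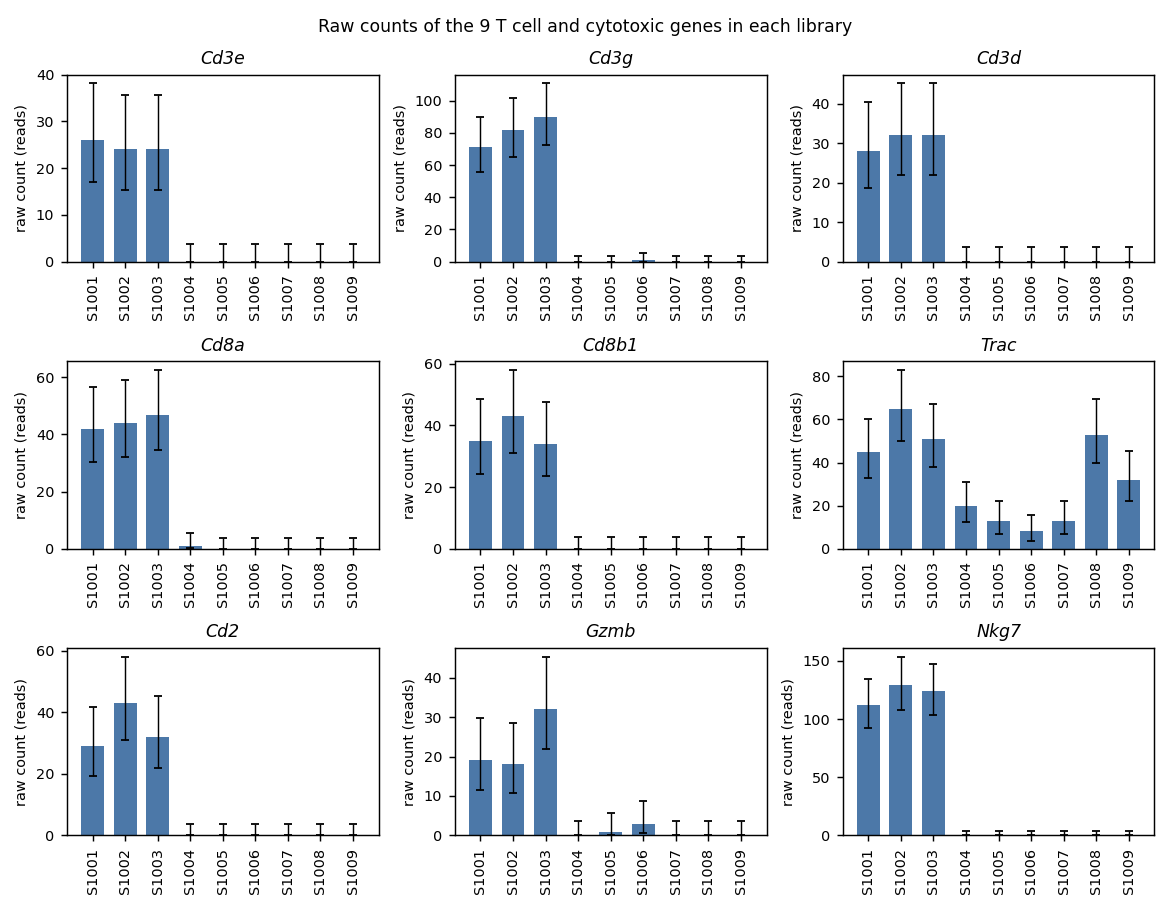
Raw read counts (vertical axis, from 0) of each of the 9 genes in each of the 9 libraries (horizontal axis). Bars are counts and lines are exact Poisson 95% intervals, which cover counting error only; all genes other than Trac had at most 3 counts in S1004 to S1009.

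The CD3 genes lie together on chromosome 9, and the sequences before their starts are shown because the genes had counts in the same libraries. Cd3g (ENSMUSG00000002033, chr9:44969572-44980431, minus strand) and Cd3d (ENSMUSG00000032094, chr9:44981786-44987339, plus strand) start 1354 bases apart and are read away from each other. Cd3e (ENSMUSG00000032093, chr9:44998740-45009627, minus strand) lies 11400 bases beyond Cd3d, all on build mm10. The 250 bases before each RefSeq start (build GRCm38.p6) are printed below 5′ to 3′ on the gene's strand, with that of Nkg7, the member of highest level, for comparison. Capitals mark matches on either strand to 4 short motifs: AGGAAG, bound by ETS factors, TGTGGT, bound by RUNX factors, AGGTGT, bound by T-box factors, and CACCTG, an E-box. The last pair can overlap.
Cd3e, chr9:45009612-45009861, minus strand: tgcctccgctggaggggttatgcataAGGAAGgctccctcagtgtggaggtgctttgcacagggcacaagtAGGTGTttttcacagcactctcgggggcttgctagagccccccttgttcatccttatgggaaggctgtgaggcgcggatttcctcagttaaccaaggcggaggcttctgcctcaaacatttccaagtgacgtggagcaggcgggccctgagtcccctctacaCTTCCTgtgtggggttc
Cd3g, chr9:44980432-44980681, minus strand: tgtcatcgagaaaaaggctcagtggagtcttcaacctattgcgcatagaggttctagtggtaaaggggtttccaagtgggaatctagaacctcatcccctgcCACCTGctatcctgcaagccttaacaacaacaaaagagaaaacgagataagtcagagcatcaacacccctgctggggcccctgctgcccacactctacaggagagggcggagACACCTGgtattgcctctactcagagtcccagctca
Cd3d, chr9:44981536-44981785, plus strand: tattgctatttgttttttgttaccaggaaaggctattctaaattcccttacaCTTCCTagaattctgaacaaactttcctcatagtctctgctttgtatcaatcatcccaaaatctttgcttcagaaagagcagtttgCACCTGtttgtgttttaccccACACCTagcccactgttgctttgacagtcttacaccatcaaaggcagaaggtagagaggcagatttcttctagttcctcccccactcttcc
Nkg7, chr7:43436888-43437137, plus strand: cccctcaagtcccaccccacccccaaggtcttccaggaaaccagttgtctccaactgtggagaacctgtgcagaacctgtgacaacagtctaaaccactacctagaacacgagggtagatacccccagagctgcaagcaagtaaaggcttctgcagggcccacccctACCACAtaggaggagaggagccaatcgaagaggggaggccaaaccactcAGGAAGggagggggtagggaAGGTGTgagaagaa

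Sequences of this kind were found for 6 of the 9 genes, Cd3e, Cd3g, Cd3d, Cd8a, Gzmb and Nkg7. AGGAAG was present before Cd3e, Cd3d and Nkg7, 3 of the 6, and in 29.5% of all 32851 promoter windows of the same length. AGGTGT was present before Cd3e, Cd3g, Cd3d and Nkg7, 4 of the 6, and in 11.8% of all windows. CACCTG was present before Cd3g and Cd3d, and in 17.2% of all windows. TGTGGT was present before Gzmb and Nkg7, and in 14.0% of all windows. The window of Cd8a held none of the 4. A match is only a run of letters and shows no binding.

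Cd3g, the gamma chain that pairs with epsilon in the receptor complex, had the most counts of the CD3 genes. It had 71, 82 and 90 counts in S1001, S1002 and S1003, 1 count in S1006 and 0 in the other 5 libraries. The highest count had an exact Poisson 95% interval of 72.4 to 110.6, and the single count one of 0.03 to 5.57. On the scale of CPM, Cd3g measured 5.82, 6.30 and 6.86 in S1001 to S1003 and 0.0727 in S1006. The level in S1001 was 28.1 times that of 3 counts in S1005, where Cd3g had 0. Such ratios to 3 counts leave out the counting error of the high library.

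Cd3d, the delta chain, had 28, 32 and 32 counts in S1001, S1002 and S1003 and 0 in the other 6 libraries. Cd3e, the epsilon chain shared by both CD3 pairs, had 26, 24 and 24 counts in the same libraries and 0 in the other 6. The level of Cd3d in S1001 was 10.5 times, and that of Cd3e in S1003 8.39 times, the level of 3 counts in S1006. The 3 high libraries and the others did not overlap for any CD3 gene. Cd3e overlaps the annotated transcripts Gm48719 and Gm48720, which had 0 to 1 counts in these libraries, and no source used here gives the strand setting of the counting.

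The coreceptor genes had the same pattern. Cd8a, the alpha chain (ENSMUSG00000053977, chr6:71373427-71379173), had 42, 44 and 47 counts in S1001, S1002 and S1003, 1 in S1004 and 0 in the other 5 libraries. Cd8b1, the beta chain (ENSMUSG00000053044, chr6:71322788-71337494), lies 35932 bases upstream on the same strand and had 35, 43 and 34 counts, with 0 in the other 6. Cd8a is also made by some dendritic cells, as a pair of alpha chains, while the beta chain is more closely tied to T cells. In CPM, Cd8a measured 3.44, 3.38 and 3.58 and Cd8b1 2.87, 3.30 and 2.59 in S1001 to S1003. The level of Cd8a in S1002 was 15.5 times, and that of Cd8b1 in S1003 11.9 times, the level of 3 counts in S1006.

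Cd2 (ENSMUSG00000027863, chr3:101275899-101287939) is an adhesion receptor of lymphocytes, T and NK cells among them, that binds Cd48. It had 29, 43 and 32 counts in S1001, S1002 and S1003 and 0 in the other 6 libraries. The ligand gene Cd48, expressed on many leukocytes, had 720, 758 and 753 counts in S1001 to S1003, 749, 466 and 487 in S1004 to S1006 and 17, 10 and 2 in S1007 to S1009. The ligand was thus present in S1004 to S1006, where Cd2 was not detected.

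The cytotoxic genes were Nkg7 and Gzmb. Nkg7, a membrane protein of cytotoxic granules (ENSMUSG00000004612, chr7:43437073-43438249), had 112, 129 and 124 counts in S1001, S1002 and S1003 and 0 in the other 6 libraries. It measured 9.18, 9.91 and 9.46 CPM in S1001 to S1003, and its level in S1001 was 42.1 times that of 3 counts in S1006. Gzmb, granzyme B, a protease that triggers death of the target cell (ENSMUSG00000015437, chr14:56258838-56262260), had 19, 18 and 32 counts in S1001, S1002 and S1003. It also had 1 count in S1005 and 3 in S1006, with 0 in S1004, S1007, S1008 and S1009. The interval of the 3 counts, 0.62 to 8.77, lay below that of the 18 counts in S1002, 10.7 to 28.5.

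Trac, the constant segment of the receptor's alpha chain (ENSMUSG00000076928, chr14:54220521-54224206), did not follow the other members. It had 45, 65 and 51 counts in S1001 to S1003, 20, 13 and 8 in S1004 to S1006 and 13, 53 and 32 in S1007 to S1009. The level in S1008, 3.23 CPM with an interval of 2.42 to 4.22, overlapped that in S1001, 3.69 CPM with an interval of 2.69 to 4.94. Trac counts were therefore present in S1007 to S1009, where all 8 other members had 0. Within S1004 to S1009, the interval of S1008, 39.7 to 69.3 counts, lay above that of S1006, 3.45 to 15.8 counts.

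Other segments of the receptor genes were looked up after the values of Trac had been seen. The 128 alpha variable segments (Trav) summed to 19, 26 and 21 counts in S1001 to S1003, 14, 21 and 11 in S1004 to S1006 and 7, 0 and 5 in S1007 to S1009. In S1008, where Trac had 53 counts, Trav segments had 0. The 60 joining segments (Traj) summed to 8, 4 and 3 counts in S1001 to S1003, 0, 8 and 8 in S1004 to S1006 and 0, 1 and 0 in S1007 to S1009, and so did not follow the CD3 genes. The beta chain followed the CD3 genes more closely. The 35 beta variable segments (Trbv) summed to 14, 13 and 12 counts in S1001 to S1003, to 1, 0 and 4 in S1004 to S1006 and to 0 in S1007, S1008 and S1009. Trbc1, a beta constant segment, had 14, 26 and 15 counts and then 0 in the other 6 libraries. Trbc2, its near-identical copy, had 50, 40 and 51 counts, then 7, 3 and 7, and then 0, 8 and 0. The division of reads between Trbc1 and Trbc2 is uncertain.

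Within S1001, S1002 and S1003 no member had counting intervals that lay apart. For all 9 genes the Poisson intervals of these libraries overlapped in every pair. At such low counts the intervals are wide, so overlap does not show equal levels, and Gzmb ranged from 1.38 to 2.44 CPM. Per gene length, as deposited FPKM (the authors' count per gene length and library total), Nkg7 was highest at 10.1 to 10.9 and Trac next at 3.97 to 5.35. Cd8b1 followed at 1.75 to 2.23 and Cd3g at 1.79 to 2.10, and their ranges overlapped. Cd2 measured 1.37 to 1.90 and overlapped Cd3g, while Cd3d at 1.27 to 1.36 did not overlap Cd2. Gzmb spanned 0.98 to 1.72 and overlapped both Cd3d and Cd8a, at 0.93 to 0.99. Cd3e was lowest at 0.45 to 0.53. The length implied by the FPKM was close to that of all annotated exons of a gene together, not of one transcript. It was 4070 bases for Cd3e and 3643 for Cd8a, but 1420 for Gzmb and 1485 for Cd8b1. The order of genes depends on this length, and by raw counts Cd3e (26, 24 and 24) was not always below Gzmb (19, 18 and 32).

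**Figure D2:**
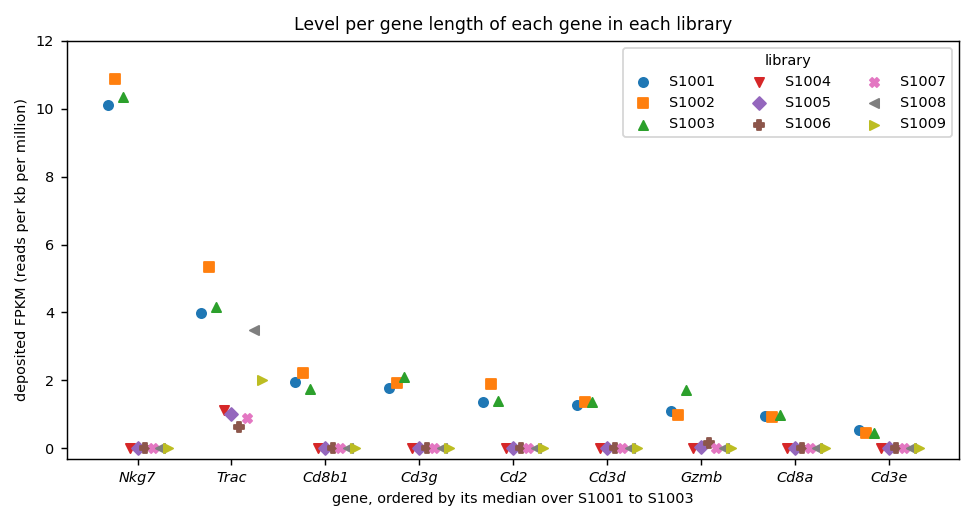
Deposited FPKM (vertical axis, linear) of each gene (horizontal axis, ordered by the median over S1001 to S1003) with one point per library. Nkg7 lies at 10.1 to 10.9 in S1001 to S1003 and Trac alone has points above 0.2 in other libraries, up to 3.48 in S1008.

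Shares over all genes are given beside the pattern of the members, which was noted after their values had been seen. The members, and the lists described below, were chosen with earlier results of these data known. The shares therefore describe the pattern and are no test of it. On the scale of CPM, S1001, S1002 and S1003 were the 3 highest libraries for 9 of 9 members, against 8.05% of the 36369 genes with at least 1 count and 12.7% of the 14787 genes whose mean reached 1 CPM. For Trac this order rests on scaling to library size, since S1008 had more raw counts than S1001 and S1003. The Poisson intervals of the highest and the lowest library lay apart for 9 of 9 members, against 52.0% of genes with at least 1 count. Only Cd3g, Cd8a, Trac and Nkg7 reached a mean of 1 CPM, and the other 5 members stayed under it.

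The spread from the second lowest to the second highest library, on the scale of log2(CPM + 1), was 3.39 for Nkg7, 2.87 for Cd3g, 2.15 for Cd8a and 1.38 for Trac. Each of these 4 thus passed 2-fold, as did 26.4% of all genes whose mean reached 1 CPM. A gene that is at 0 in most libraries reaches this mean only through its high libraries, so the 4 of 4 supports nothing by itself. The spread was 1.95 for Cd8b1, 1.78 for Cd2, 1.78 for Cd3d, 1.51 for Cd3e and 1.35 for Gzmb, and the pseudocount of 1 CPM makes these low. The median over the 9 members was 1.78. It was 0.35 over all genes with at least 1 count and 0.66 over those whose mean reached 1 CPM. Over S1004 to S1009 alone, an alternative chosen after seeing the data, the spread was 0.66 for Trac, 0.10 for Gzmb and 0 for the other 7.

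Many other T cell genes had the same order, but not all. Of 34 further genes of T cell identity and receptor signalling, 18 were highest in S1001, S1002 and S1003, against the 8.05% of genes with at least 1 count. Among the 34, 13 reached a mean of 1 CPM and 11 of these passed 2-fold, against 26.4% of all genes at that mean, and the count fell to 4 of 8 with S1001 to S1003 left out together. As with the members, genes at 0 in most libraries reach this mean only through their high ones, so nothing is read from the 2-fold counts of this list or of the cytotoxic list. The Poisson intervals lay apart for 25 of the 34, against 52.0% of genes with at least 1 count. Cd247, the zeta chain that carries most of the receptor's signalling motifs, had 13, 14 and 17 counts in S1001 to S1003, 3 in S1006 and 0 in the other libraries. Lat, the adaptor that T cell receptor signals assemble on, had 47, 37 and 31 counts, then 2, 0 and 0, and then 0, 7 and 7.

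Inhibitory and migration receptors were among the genes highest in S1001 to S1003. Lag3, an inhibitory receptor that binds MHC class II, measured 439, 432 and 439.7 CPM in S1001 to S1003 and 0.123 to 5.79 CPM in the other 6 libraries. It was far above any CD3 gene, and it is also expressed outside T cells. Pdcd1, the checkpoint receptor PD-1, had 159, 156 and 179 counts and then 0 to 3. Ccr7, which guides lymphocytes to lymph nodes, had 44, 47 and 54 counts and then 0 to 2. Ctla4, another inhibitory receptor, had 8, 10 and 13 counts and then 0 to 1. Lcp2 and Rhoh, signalling proteins of many blood cells, were also highest in S1001 to S1003 but were not confined to them. Lcp2 measured 47.6 to 51.5 CPM in S1001 to S1003, 20.5 to 34.8 CPM in S1004 to S1006 and 0.431 to 0.875 CPM in S1007 to S1009. Rhoh measured 30.6 to 31.7, 3.20 to 6.55 and 0 to 0.548 CPM in the same order.

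Other members of the list had another order. Cd4, the coreceptor of helper T cells that macrophages also express, measured 12.4, 10.5 and 13.1 CPM in S1001 to S1003, 20.5, 23.9 and 13.6 CPM in S1004 to S1006 and 0 in S1007 to S1009. Lck, a kinase that acts on the CD3 and zeta chains, had 46 to 101 counts over the 9 libraries. Zap70, a kinase that binds these chains, had 28 to 94 counts, and its highest level, 6.06 CPM, was in S1007. Skap1, an adaptor of T cell adhesion, ranged from 1.66 to 8.27 CPM with its highest level in S1005. Foxp3, which defines regulatory T cells, had 1 to 4 counts in every library, and its intervals did not separate.

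Of 24 further cytotoxic and NK genes, 13 were highest in S1001, S1002 and S1003, against 8.05% of genes with at least 1 count. Of the 24, 6 reached a mean of 1 CPM and 5 of these passed 2-fold, against 26.4% of all genes at that mean, and the count fell to 2 of 4 with S1001 to S1003 left out together. Intervals lay apart for 17 of the 24, against 52.0% of genes with at least 1 count. Prf1, perforin, which opens the target membrane to granzymes, had 9, 7 and 6 counts in S1001 to S1003, 1 in S1005 and 0 in the others. Ifng, interferon gamma, an activator of macrophages, had 16, 18 and 26 counts, 2 in S1007 and 0 in the others. Xcl1, a chemokine of activated CD8 and NK cells, had 16, 17 and 17 counts and 0 in all other libraries. Il2rb, a receptor chain for the growth factors IL-2 and IL-15, had 26, 50 and 41 counts, 4 in S1005 and 0 in the others.

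The granzymes were uneven. Gzma had 2, 2 and 0 counts in S1001 to S1003 and 0 elsewhere, and Gzmc had at most 1 count. Gzmk ranged from 1.17 to 3.36 CPM and Gzmm from 0.158 to 1.04 CPM, with counts in all 9 libraries, including those with no CD3 count. Genes of the list that other cells share were far more abundant. Cst7, a cystatin of cytotoxic cells and of activated microglia, measured 698, 659 and 694.5 CPM in S1001 to S1003 and 0 to 1.38 CPM elsewhere. Ccl5, a chemokine of T cells and macrophages, ranged from 0.0673 to 120.7 CPM. Srgn, the granule proteoglycan of many blood cells, ranged from 0.185 to 117 CPM and was intermediate in S1004 to S1006.

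**Figure D3:**
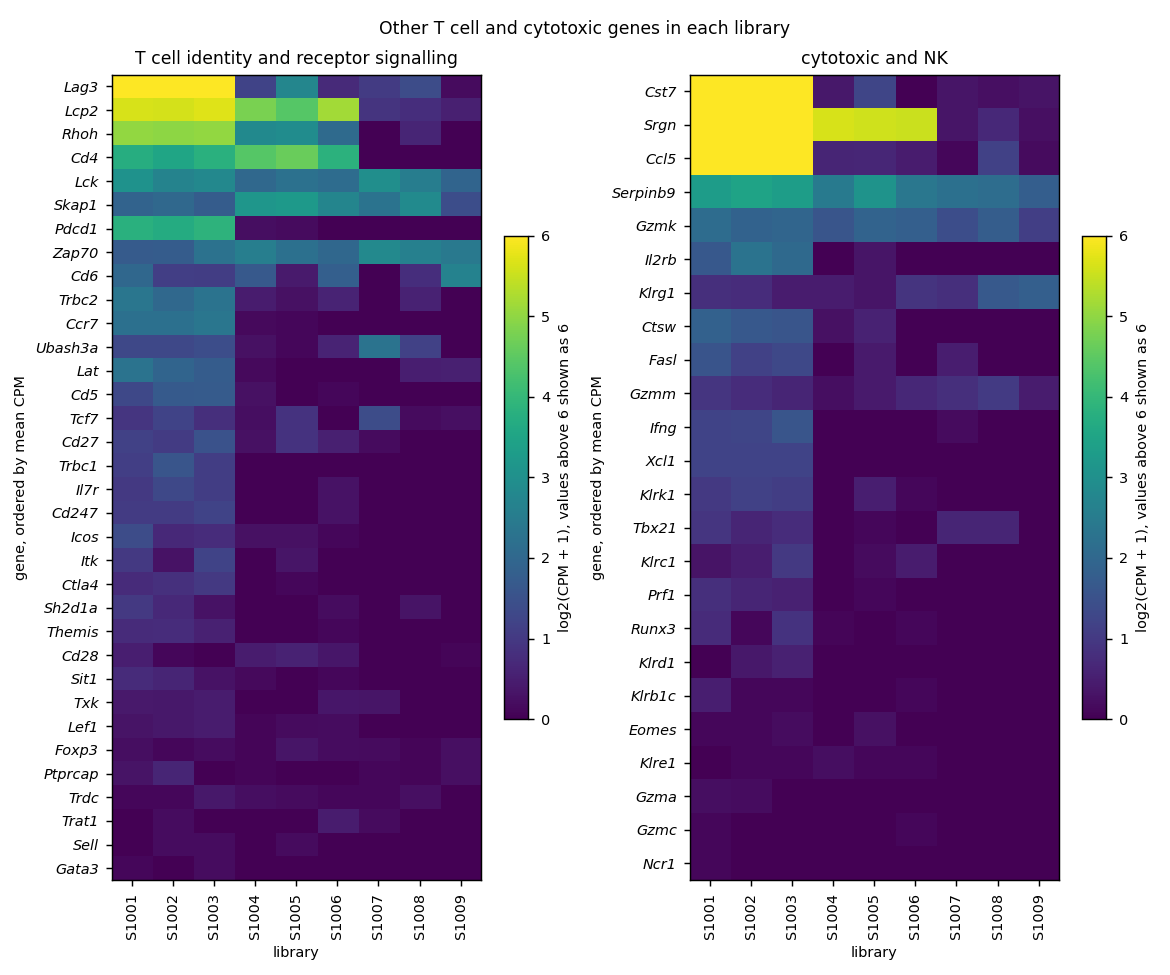
Heat map of log2(CPM + 1) for 34 T cell genes (left) and 24 cytotoxic and NK genes (right), ordered by mean CPM, in each library (columns); values above 6 have the colour of 6. Of these genes 18 and 13 have S1001 to S1003 as their 3 highest libraries, while Lck, Zap70, Skap1 and Gzmk are present in all.

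Defining genes of NK cells were scarcely detected. The 7 NK markers summed to 2.29 to 2.46 CPM in S1001 to S1003 and 0 to 0.690 CPM in the other libraries. Ncr1, the NK receptor NKp46, had 1 count in S1001 and 0 in all others, Klrb1c had 5, 1 and 1 counts in S1001 to S1003, and Eomes had 1, 1 and 2, with 3 in S1005. Klrk1, the receptor NKG2D of NK and CD8 T cells, had 12, 16 and 15. The 11 T cell markers summed to 36.0 to 37.2 CPM in S1001 to S1003 and 4.58 to 8.59 CPM in the others, where most of the sum was Lck and Trac.

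Sums of microglia, pan-leukocyte, plasma cell and B cell markers were also highest in S1001 to S1003. Unlike the members other than Trac, those of microglia and pan-leukocyte markers were still high in S1004 to S1006. In S1001 to S1003, S1004 to S1006 and S1007 to S1009 in turn, the 8 microglia markers summed to 11670 to 12850, 3875 to 5004 and 21.7 to 106 CPM. The 6 pan-leukocyte markers summed to 1688 to 1743, 569 to 745 and 234 to 268 CPM, of which Coro1a, a gene neurons also use, was 199 to 269 CPM. The 6 plasma cell markers summed to 1105 to 1185, 5.96 to 12.5 and 1.17 to 3.59 CPM, and the 6 B cell markers to 23.7 to 29.5, 3.47 to 4.97 and 0 to 0.548 CPM. Jchain made up most of the plasma cell sum in S1001 to S1003, at 1046 to 1131 CPM, but only 0.202 to 1.17 CPM of it in the other libraries, and Tnfrsf17 was highest in S1004, at 6.21 CPM. Border macrophage markers, at 353 to 359, 1324 to 1741 and 1.91 to 15.4 CPM, had another order. S1004 to S1006 thus held abundant transcripts of Mrc1 and Pf4, of border macrophages, with 0 to 1 counts of Cd3e, Cd3g and Cd3d each.

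Markers of some other cells were at or near 0. Of 6 neutrophil markers, Retnlg was 0 in every library, S100a8, S100a9, Ly6g and Cxcr2 had 0 to 2 counts, and the sum of up to 76.4 CPM was nearly all Csf3r. The 5 mast cell markers summed to at most 0.384 CPM, with Ms4a2 at 0 in every library. The 3 erythroid markers summed to 0.0609 to 0.759 CPM and the 3 endothelial ones to 0 to 2.38 CPM. The 7 dendritic cell markers summed to 158 to 173, 45.3 to 59.3 and 7.03 to 9.87 CPM. In S1001 to S1003 this was mostly Siglech, which microglia share, at 148 to 162 CPM, and in S1007 to S1009 mostly Flt3, at 4.07 to 7.55 CPM. Cd209a was highest in S1004 to S1006, at 16.4 to 18.4 CPM, while Xcr1 and Clec9a, of dendritic cells that can bear Cd8a, had 0 to 5 counts. The part of other cells in the levels of Nkg7, Gzmb, Cd2 and Cd8a was not tested. In such bulk samples, fewer cells of a type and less RNA per cell cannot be told apart.

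**Figure D4:**
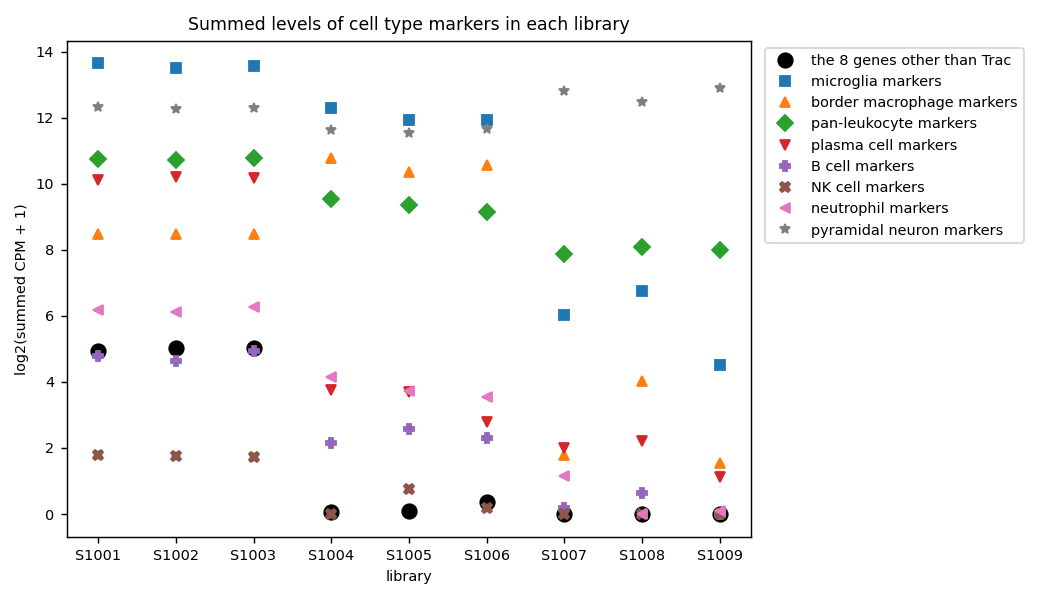
Sums of CPM, as log2(summed CPM + 1), for the 8 genes other than Trac (black) and for marker lists of other cell types in each library (horizontal axis). The 8 genes and the plasma cell markers are high only in S1001 to S1003 among the 9 libraries, border macrophage markers are highest in S1004 to S1006, and pyramidal neuron markers are present in all.

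Genes for partners of some members, and for other ligands of T cells, were highest in the same libraries, though most were not confined to them. B2m, H2-D1 and H2-K1, which form the MHC class I molecules that CD8 binds, ranged from 94.8 to 3977, 33.0 to 2717 and 1.91 to 1074 CPM. They were intermediate in S1004 to S1006, at 566 to 694, 302 to 492 and 108 to 223 CPM. Cxcl9 and Cxcl10, chemokines that attract T cells through Cxcr3, had 796 to 814 and 3439 to 3899 counts in S1001 to S1003, and 0 to 4 and 6 to 357 counts in the others. All 9 genes of the list were highest in S1001 to S1003. The share was 12.7% of genes whose mean reached 1 CPM, as these 9 did, and 8.05% of genes with at least 1 count. The same order held for 8 of 8 microglia, 5 of 6 pan-leukocyte and 0 of 6 border macrophage markers. Of the 9 genes, Cd48, H2-K1, H2-D1 and B2m are partners of a member. Receptors for chemokines and adhesion varied too. Cxcr6, a receptor of T cells resident in tissue, had 54, 59 and 63 counts and then 0 to 3. Cd69, an early activation and residency marker, ranged from 0 to 29.9 CPM. Cxcr3 itself had 84, 87 and 78 counts in S1001 to S1003, more in S1004 to S1006, at 222, 174 and 119, and 0 to 1 in S1007 to S1009. Itga4 and S1pr1 were present in all libraries, at 12.5 to 31.8 and 1.68 to 33.8 CPM. Thy1, Bcl11b and Fyn, T cell genes that neurons also use, had none with S1001 to S1003 as the 3 highest libraries.

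Genes of like pattern over the 9 libraries were sought for Cd3g, Cd8a, Trac and Nkg7, among genes whose mean reached 1 CPM. The other members lay below that mean, so they could not appear as neighbours. The genes nearest to Cd3g, Cd8a and Nkg7 in this set included antibody segments. Likeness was the root mean square difference of log2(CPM + 1), centred on each gene's median and divided by its range. The nearest to Nkg7 were Ighv9-3 at 0.002, Gimap4 at 0.008 and Slpi at 0.01. The nearest to Cd3g were Igkv6-17 at 0.013, Igkv11-125 at 0.013 and Ighv1-80 at 0.014, and the nearest to Cd8a were Igkv9-120 at 0.005, Slpi at 0.013 and Madcam1 at 0.013. Genes with counts in S1001 to S1003 alone are all near each other by this measure. For Trac the nearest, Daglb at 0.103, Psat1 at 0.129 and Dcun1d2 at 0.135, were further away, and each had at least 195 counts in every library.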

How the data were processed

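The submitters' processing notes list HTSeq 0.6.1, HISAT2 2.0.1, Trimmomatic 0.30 and bcl2fastq 2.17.1.14, with build mm10. No source used here gives their roles and parameters, the annotation release or the strand setting. For each of 9 libraries the authors deposited raw counts and FPKM values of Ensembl genes, per the file headers. Replicates were not pooled. Symbols and coordinates came from GENCODE M21, which held 51719 (99.63%) of the gene identifiers.

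The labels put 0 of 9 libraries in a group, so no test between doses was run. CPM were computed with TMM factors (edgeR 4.0.16, R 4.3.3), with a pseudocount of 1 CPM for log2 values. Exact Poisson 95% intervals used scipy 1.17.1. Deposited FPKM served to compare genes. Members and lists were chosen with earlier results of these data known. The rule for further genes took the 2 most abundant and the 2 most variable of each list and markers at 0 in every library. It also took the 3 genes nearest to each member whose mean reached 1 CPM, among genes of that mean. It was applied in part, with marker lists given as sums, and genes of known role were added after their values were seen. Alternatives were other scalings (DESeq2 1.42.0 size factors or totals), pseudocounts, minimum means, the full range and left-out libraries. The calculation of spread was tested on simulated data. 1 gene of a marker list is not reported here.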

Additional observations from a re-analysis of the deposited data

How the results depend on the processing

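The counts of genes past 2-fold were 4 of 4 members, 11 of 13 T cell genes and 5 of 6 cytotoxic genes whose mean reached 1 CPM. With a pseudocount of 5 CPM they fell to 2, 5 and 3. With no minimum mean they were 9 of 9, 17 of 34 and 11 of 24. With a minimum mean of 10 CPM they were 4 of 4 T cell and 3 of 3 cytotoxic genes, and no member could be described. With S1002 and S1003 left out together, chosen after seeing the data, they were 1 of 2, 7 of 10 and 3 of 6, since S1001 is then the one high library and the spread leaves out the highest. With S1001, S1002 and S1003 left out together, also chosen then, they were 0 of 1, 4 of 8 and 2 of 4. Leaving out each library in turn gave 3 to 6, 9 to 11 and 5 to 6, as the number reaching 1 CPM changed. Total-count scaling, DESeq2 size factors, a pseudocount of 0.5 CPM and the full range kept each count within 1.5 times. No paired analysis was possible because no library has a group. Counts of 20 or fewer per library limit the precision of the lowest members most.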
